A study of Mus musculus with 48 samples.

Results

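Bone, cartilage and stromal progenitors (BCSP) were compared with skeletal stem cells (SSC) by RNA sequencing; both were sorted from the limbs of C57BL/6 mice, aged postnatal day 3. The comparison rests on 4 libraries, 2 of BCSP and 2 of SSC, of the 12 RNA libraries and the 48 samples of the series, and all 55487 listed genes were considered, of which 16264 passed the filter on low counts and were tested. The mice of these libraries had the genotype Ptipf/f, that is floxed alleles of Ptip (now Paxip1, an adaptor protein of H3K4 methyltransferase complexes) and no Cre transgene, and they are called WT below. The fit also held the 2 WT libraries of the intermediate population pre-BCSP (pBCSP), which add to the estimate of the spread. The matching KO groups, used in 1 paragraph, were the same populations of Ptipf/f;Col2a1-cre mice, in which Cre is driven by regulatory sequence of the cartilage collagen gene Col2a1. The labels do not say whether replicates were separate animals or pools. A p-value therefore measures the spread between these libraries, of which an unknown part may be technical. Xist, the RNA of the inactive X chromosome, was read in replicate 1 of each WT population and in replicate 2 of none. Replicates 1 and 2 thus did not hold the same mix of animals.

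The mouse skeletal stem cell is defined by surface antigens on cells of the growth plate and perichondrium, and gives rise to cartilage, bone and stroma. BCSP are its multipotent progeny, and pBCSP the step between. In the sorting scheme from which the names come, these populations carry the integrin alpha V chain and lack the blood, endothelial and lymphoid antigens CD45, Ter119, Tie2 and Thy1. CD105 (endoglin) separates BCSP from the less mature cells, and CD200 separates SSC from pBCSP. The gates of this study are not given in the labels.

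Total counts were 18090139 and 15495915 in SSC, 22670899 and 18072823 in pBCSP, and 19337996 and 17479990 in BCSP, for replicates 1 and 2. Levels are CPM, counts divided by the library size in units of 1000000 reads, after TMM scaling (edgeR's trimmed-mean factors). A count of 0 allows up to 3 counts, which is 0.175 and 0.182 CPM in the SSC libraries and covers counting error only. The 2 libraries of a group differed by a median of 0.451 log2 units per gene in SSC and 0.355 in BCSP. Fold changes are log2 ± SE with n = 2 libraries per group, taken as BCSP minus SSC. The SE was not estimated directly. It is the size of the fold change divided by the square root of edgeR's quasi-likelihood F statistic. It is thus approximate, and unreliable where the fold change is near 0. A gene is said to have risen or fallen where the adjusted p of edgeR's quasi-likelihood test was under 0.05. This fit had no term for the replicate number. Results with such a term (the replicate block) are given for some genes and at the end.

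The sorting antigens were read first, since they check the labels. Eng, which encodes endoglin, was at 28.2 and 25.4 CPM in SSC, with 29.7 and 34.7 CPM for pBCSP and 174 and 131 CPM for BCSP. Both BCSP libraries stood above the other 4, and Eng rose by 2.51 ± 0.23 (adjusted p = 0.00157). Cd200 was at 293 and 200.4 CPM in SSC, with 28.1 and 26.1 CPM for pBCSP and 137 and 77.8 CPM for BCSP. SSC libraries were the highest and pBCSP the lowest, and the difference of BCSP from SSC (-1.20 ± 0.30, adjusted p = 0.0818) did not pass the test. It passed with DESeq2 (adjusted p = 0.00526) and with the replicate block (0.000547). Itgav, the integrin alpha V gene, lay between 60.7 and 72.7 CPM in all 6 libraries (0.10 ± 0.19, adjusted p = 0.912). Thy1 was at 0 in both SSC libraries and at 0.205 and 0.174 CPM in BCSP, and Ptprc, which encodes CD45, did not exceed 0.256 CPM in the 4 libraries. Tek, which encodes Tie2, which that scheme gates against, rose from 0.467 and 0.545 CPM to 11.0 and 10.4 CPM (4.38 ± 0.41, adjusted p = 0.0016).

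**Figure D1:**
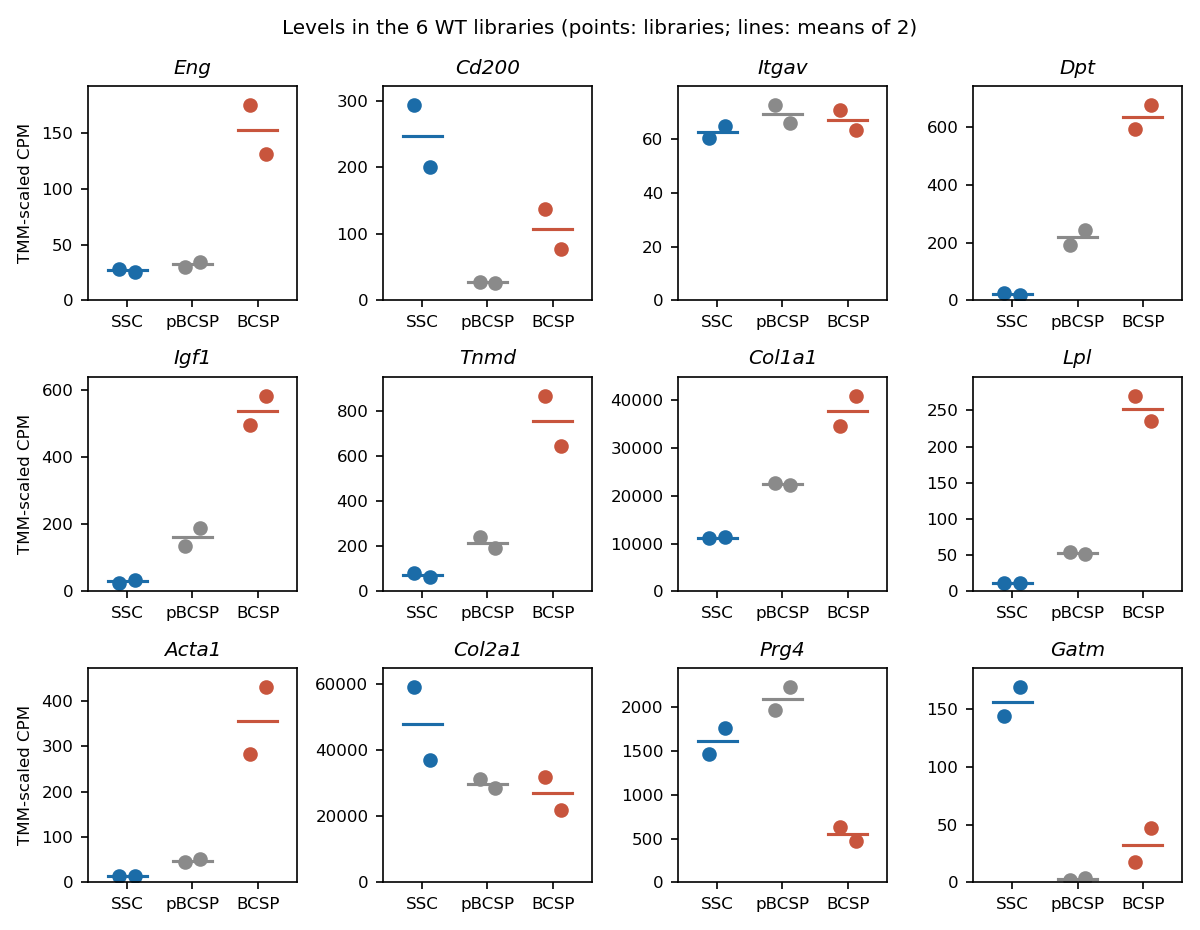
TMM-scaled CPM (vertical axes, from 0) of 12 genes in the 6 WT libraries. Points are libraries and lines are means of 2; Eng is at 174 and 131 CPM in BCSP against 28.2 and 25.4 CPM in SSC, and Prg4 and Gatm are the reverse.

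In all, 463 genes rose in BCSP (2.85% of the 16264 tested) and 98 fell (0.603%), together 3.45%. The list counts of this fit below stand against these shares. List counts given for DESeq2 stand against 816 higher and 341 lower of 16264 genes. Those without a filter stand against 936 higher and 543 lower of 29553 genes. The median log2 fold change of all genes tested was -0.022. Of the genes that rose 454 did so by more than 2-fold, and of those that fell 87 did. Each of the 561 had BCSP libraries that did not overlap those of SSC, which was also true of 22.3% of all tested genes with BCSP above and 21.3% with BCSP below. The count changed with the libraries used and was 336 without SSC replicate 1, 315 without SSC replicate 2, 271 without BCSP replicate 1 and 173 without BCSP replicate 2. With all 12 libraries in 1 fit edgeR called 0 genes (608 at an unadjusted p under 0.05), where the KO groups enter the spread, while DESeq2 called 80 genes on those libraries.

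**Figure D2:**
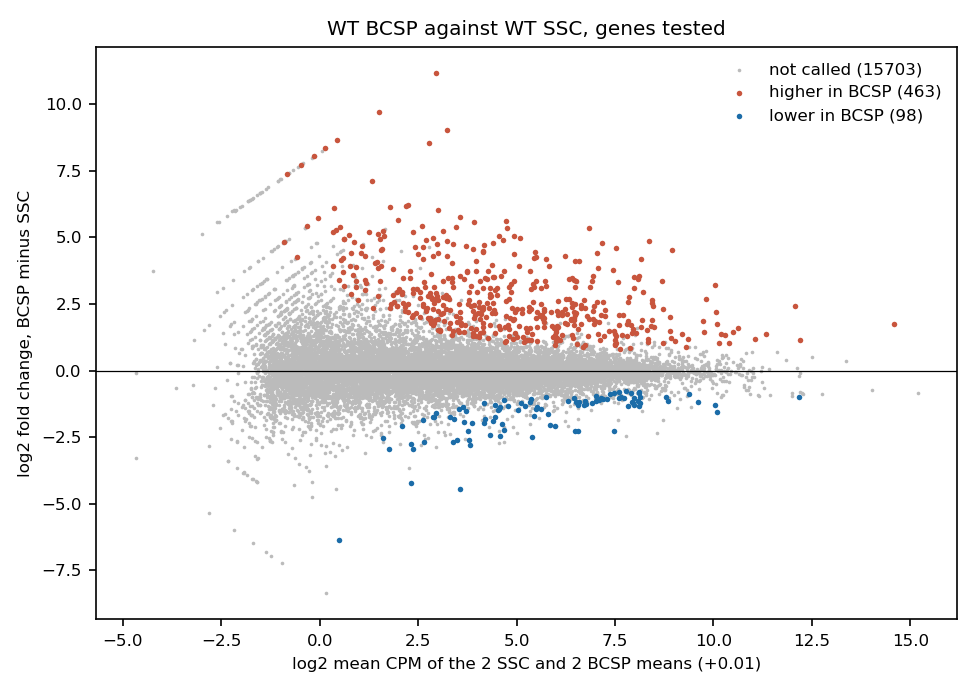
Log2 fold change of BCSP against SSC (vertical axis) against the log2 mean CPM of both groups (horizontal axis), 1 point per tested gene. The 463 genes called higher outnumber the 98 called lower, and points on straight lines at the left are genes with very few counts in 1 population.

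Of the 12 largest increases, 4 were in genes of the p200 family, whose proteins bind nucleic acid and which are known for induction by interferons. Of 13 family members, looked up after this was seen, 6 were tested and the other 7 had at most 4 counts in any library. The 6 had 0 to 10 counts per SSC library and passed the filter on low counts through the populations where they were higher, so their number is a description only. Ifi203 had no read in either SSC library, 0.856 and 1.59 CPM for pBCSP, and 10.5 and 20.6 CPM in BCSP, so that it was at least 171-fold higher in BCSP when 3 counts are allowed over the SSC group (adjusted p = 0.0024). Ifi207 was at 0.409 and 0.424 CPM in SSC and 17.4 and 28.6 CPM in BCSP (5.77 ± 0.45, adjusted p = 0.000628). Every BCSP library was thus far above every SSC library, and pBCSP lay between. Ifi211 rose by 6.02 ± 0.73, Ifi204 by 5.39 ± 0.47, Ifi205 by 4.93 ± 0.72 and Mndal by 4.63 ± 0.49. The call of Ifi205 was lost without SSC replicate 2 (adjusted p = 0.0516) or BCSP replicate 2 (0.0741), and the others were called without any 1 library. These genes are close relatives that lie side by side on chromosome 1 (GRCm38.p6, from 173349547 to 174031755 for the whole family), and reads shared between them may have been split or dropped in counting, so the value of a single member is uncertain. Ifi203, Ifi207, Ifi211 and Mndal have RefSeq promoter entries, which are shown here because the genes moved together; each runs from 250 bases before the annotated start to 50 after it, 5′ to 3′ on the minus strand of GRCm38.p6, with matches in capitals to the motif GAAA, NN (any bases) and GAAA in a row. The regions are chr1:173942443-173942742 for Ifi203 (its second entry), chr1:173741760-173742059 for Ifi207, chr1:173912997-173913296 for Ifi211 and chr1:173880138-173880437 for Mndal (its first entry).
Ifi203: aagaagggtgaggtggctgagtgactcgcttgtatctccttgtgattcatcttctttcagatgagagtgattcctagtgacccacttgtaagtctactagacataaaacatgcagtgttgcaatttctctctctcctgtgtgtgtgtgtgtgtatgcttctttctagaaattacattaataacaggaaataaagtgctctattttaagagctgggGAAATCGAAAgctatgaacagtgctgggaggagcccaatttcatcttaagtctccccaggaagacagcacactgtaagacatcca
Ifi207: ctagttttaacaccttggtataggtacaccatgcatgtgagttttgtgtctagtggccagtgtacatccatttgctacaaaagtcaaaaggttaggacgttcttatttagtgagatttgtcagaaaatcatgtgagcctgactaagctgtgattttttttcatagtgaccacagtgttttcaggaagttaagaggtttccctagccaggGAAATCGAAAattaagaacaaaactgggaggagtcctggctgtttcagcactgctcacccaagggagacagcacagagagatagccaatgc
Ifi211: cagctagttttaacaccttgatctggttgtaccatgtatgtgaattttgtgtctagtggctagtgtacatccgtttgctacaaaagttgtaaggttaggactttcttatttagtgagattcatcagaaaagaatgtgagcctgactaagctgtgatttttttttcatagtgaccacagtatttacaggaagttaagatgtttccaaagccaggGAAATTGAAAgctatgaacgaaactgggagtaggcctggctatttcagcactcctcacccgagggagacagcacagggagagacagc
Mndal: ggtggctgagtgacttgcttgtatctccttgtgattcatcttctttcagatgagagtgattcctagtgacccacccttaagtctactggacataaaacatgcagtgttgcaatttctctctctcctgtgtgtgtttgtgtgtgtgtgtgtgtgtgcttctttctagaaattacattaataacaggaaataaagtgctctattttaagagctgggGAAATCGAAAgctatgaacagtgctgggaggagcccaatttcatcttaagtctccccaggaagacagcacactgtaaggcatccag
This motif is the core of the element bound by interferon regulatory factors, and it was searched on both strands. The match ended 25 bases before the start in Ifi203, 31 in Ifi207, 27 in Ifi211 and 26 in Mndal. It reads GAAATCGAAA in Ifi203, Ifi207 and Mndal and GAAATTGAAA in Ifi211. The other Ifi203 entry holds no match. Of all 32851 mouse promoters of this length 3.44% hold a match, against 2.99% of the 14524 of tested genes, 5.44% of the 423 of genes that rose and 3.96% of the 101 of genes that fell. The 5.44% includes the p200 promoters shown here, which prompted the search. The stretches of Ifi203 and Mndal are nearly the same, so their matches are not independent. A match is a description of the letters and not evidence of binding.

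A list of interferon genes that leaves out the p200 family was read beside them. Of 18 tested interferon and antigen presentation genes 1 rose and none fell, against 2.85% of all genes that rose, although 18 of 18 fold changes were above 0 (median 0.78 against -0.022 for all genes). The count of higher genes was 4 with DESeq2 and 4 without a filter. The 1 that rose was Bst2, which encodes the membrane protein tetherin (1.93 ± 0.38, adjusted p = 0.0359), and its call was lost without SSC replicate 1 (0.149), BCSP replicate 1 (0.0503) or BCSP replicate 2 (0.325).

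Among the other leading genes, Calb2, the calcium-binding protein calretinin, was at 0.0584 and 0 CPM in SSC and 21.4 and 16.1 CPM in BCSP. With 1 SSC count in all, the ratio was 637 with a 95% counting interval from 114 to 25191. Qprt, an enzyme of NAD synthesis from tryptophan, was at 0.0584 and 0 CPM against 12.8 and 14.5 CPM, a ratio of 458 (81.7 to 18107). Neither gene overlapped between the populations, and both were called without any 1 library. Calb2 and Qprt, and Il1rl1, Myot and Dpp4 below, passed the filter on low counts through populations where they were higher than in SSC. Their calls and lack of overlap are thus a description only. Col6a6, a collagen VI chain, was at 1.46 and 0.666 CPM in SSC and 46.1 and 58.7 CPM in BCSP (5.61 ± 0.59, adjusted p = 0.00254). Il1rl1, the receptor of interleukin 33, rose by 5.56 ± 0.63, the sarcomere protein gene Myot by 5.43 ± 0.57 and the aminopeptidase gene Lvrn by 5.35 ± 0.40. Dpp4, a surface peptidase that marks early fibroblast progenitors of several tissues, was at 0.526 and 0.363 CPM in SSC and 17.3 and 17.0 CPM in BCSP (5.25 ± 0.40, adjusted p = 0.000596). The chemokine gene Ccl7 was at 6.13 and 4.84 CPM in SSC and 96.3 and 350.0 CPM in BCSP (5.34 ± 0.76, adjusted p = 0.00849). Its 2 BCSP libraries differed widely, and its call was lost without SSC replicate 2 (0.0531).

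**Figure D3:**
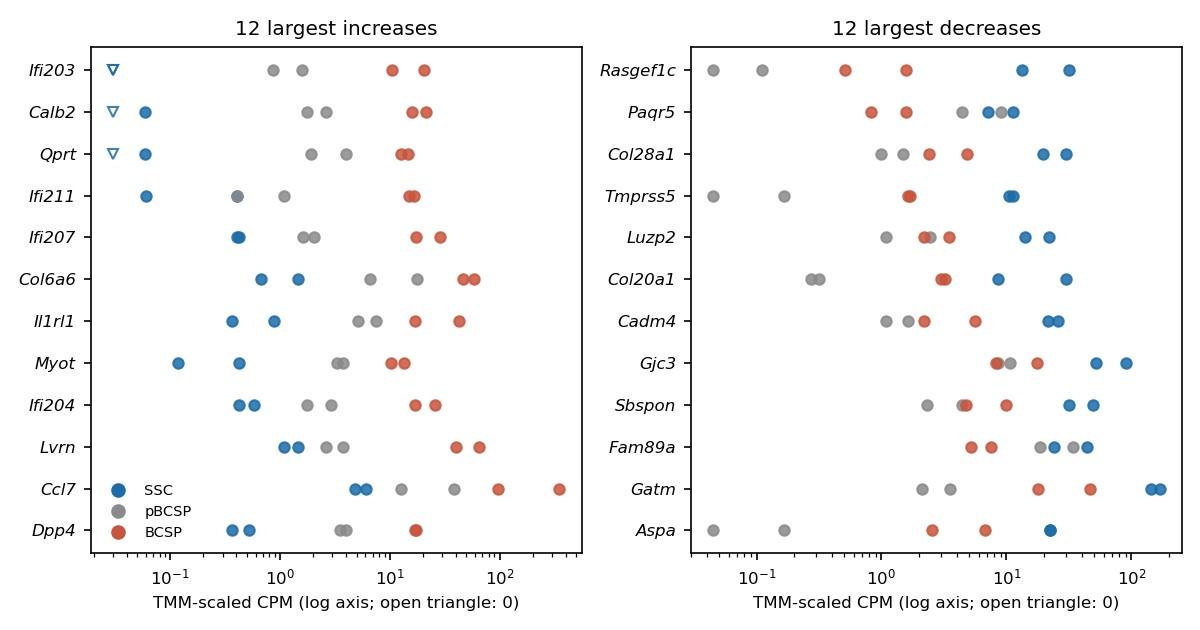
TMM-scaled CPM (log axes) of the 12 genes with the largest increase and the 12 with the largest decrease among those called with a mean of at least 5 CPM, 1 point per WT library. BCSP points lie to the right of SSC points for the increases and to the left for the decreases; open triangles stand for 0, as for Ifi203 in both SSC libraries.

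The list of skeletal progenitor genes, many of which also mark fibroblasts, held the most increases. Of 25 tested skeletal progenitor genes 12 rose and 1 fell, against 2.85% and 0.603% of all genes, and the list had a median of 0.73. Dpt, which encodes the matrix protein dermatopontin and marks fibroblasts of many tissues, was at 26.4 and 17.9 CPM in SSC, with 194 and 245 CPM for pBCSP and 595 and 676 CPM for BCSP. The 3 populations did not overlap, and Dpt rose by 4.84 ± 0.27 (adjusted p = 0.000329), a 28.7-fold change. Clec3b, which encodes tetranectin, was at 2.34 and 1.21 CPM in SSC and 51.2 and 67.6 CPM in BCSP (5.06 ± 0.39, adjusted p = 0.000596). Pi16, a secreted peptidase inhibitor of perivascular and fascial fibroblasts, was at 3.91 and 3.87 CPM against 64.2 and 105 CPM (4.43 ± 0.42, adjusted p = 0.00163). Ly6a, the gene of the stem cell antigen Sca-1, was at 5.02 and 3.87 CPM against 75.4 and 95.3 CPM (4.26 ± 0.31, adjusted p = 0.00057). These genes share a pattern in which SSC was low, pBCSP intermediate and BCSP high. Cd34, a sialomucin of blood and stromal progenitors, rose by 3.10 ± 0.22, the adhesion molecule gene Vcam1 by 2.54 ± 0.30 and the matricellular protein gene Postn by 2.19 ± 0.18. All 7 were called without any 1 library.

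Less firm were the chemokine gene Cxcl12 (2.58 ± 0.45, adjusted p = 0.0214) and the receptor gene Pdgfra (1.93 ± 0.30, adjusted p = 0.0126). Pdgfra was at 37.9 and 56.5 CPM in SSC and 145 and 216 CPM in BCSP. Without SSC replicate 1 or BCSP replicate 2 the adjusted p was 0.0907 and 0.146 for Cxcl12, and 0.0611 and 0.117 for Pdgfra. The protease gene Ctsk rose by 1.48 ± 0.24, with the call lost without SSC replicate 1 (0.0608), SSC replicate 2 (0.0824) or BCSP replicate 2 (0.146). The mesenchymal transcription factor genes Prrx1 (1.11 ± 0.24, adjusted p = 0.0463) and Twist2 (2.34 ± 0.46, adjusted p = 0.0328) lost their calls without any of the 4 SSC or BCSP libraries (0.0754 to 0.278 for Prrx1 and 0.0654 to 0.233 for Twist2). The 1 member that fell was Cspg4, the proteoglycan NG2 of pericytes and other progenitors, at 308 CPM in both SSC libraries and 188 and 155 CPM in BCSP (-0.85 ± 0.18, adjusted p = 0.0459). It was not called without any of these 4 libraries (0.104 to 0.297), nor without pBCSP replicate 2 (0.0614), nor with only the 4 libraries in the fit.

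**Figure D4:**
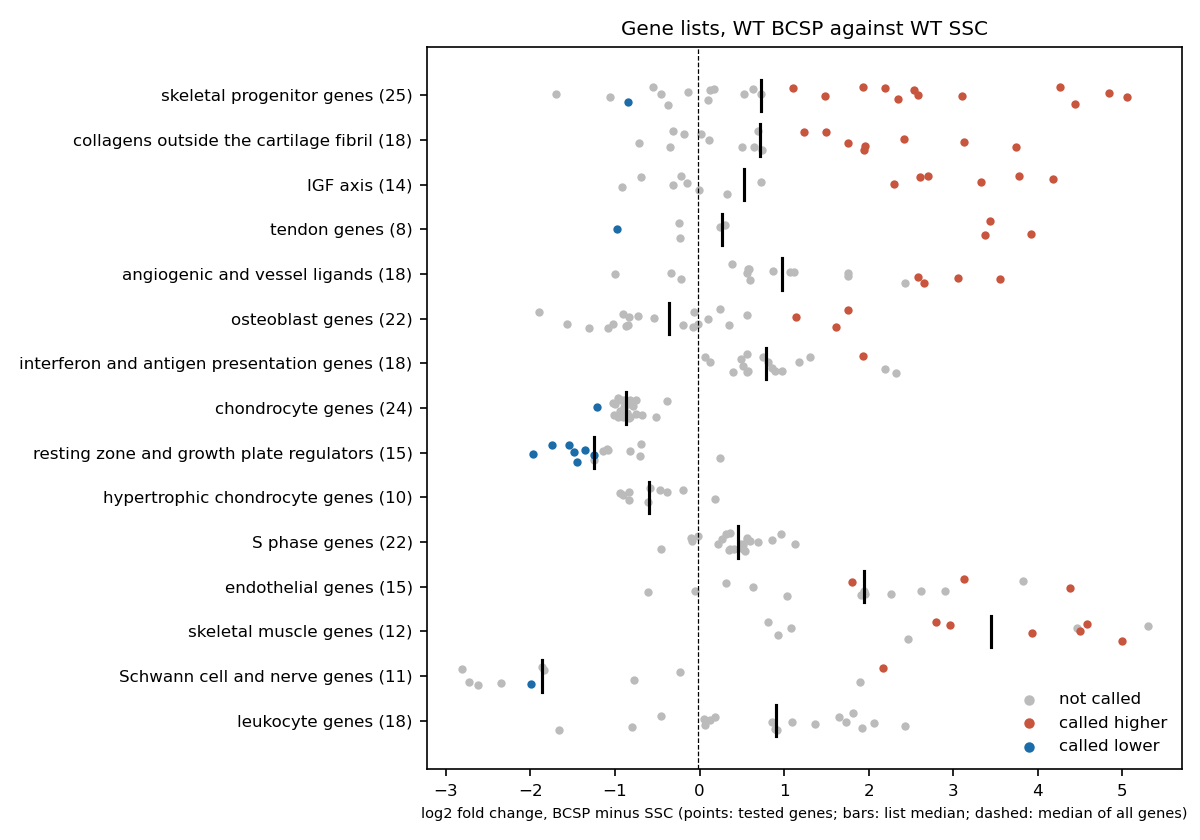
Log2 fold change of BCSP against SSC (horizontal axis) for the tested members of 15 gene lists (rows, number tested in brackets); vertical bars are list medians and the dashed line is the median of all genes. Called genes lie to the right for collagen, IGF and muscle genes, and to the left for the resting zone list. Of the called progenitor genes 12 lie to the right and 1 to the left, and all 24 chondrocyte genes lie left of 0 with 1 called.

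Of 18 tested collagens outside the cartilage fibril 8 rose and none fell, against 2.85% of all genes that rose, and 4 had fold changes below 0 (median 0.71). Col3a1, a fibrillar collagen of loose connective tissue, was at 1151 and 1581 CPM in SSC, with 1359 and 2458 CPM for pBCSP and 7155 and 7415 CPM for BCSP (2.41 ± 0.29, adjusted p = 0.00418). Both BCSP libraries were over 4 other libraries that overlapped each other. Col5a3 rose by 3.13 ± 0.30 and Col5a2 by 1.24 ± 0.16, chains of collagen V, which nucleates collagen I fibrils. Col14a1, a fibril-associated collagen, rose by 1.94 ± 0.22, and Col22a1, a collagen of the muscle-tendon junction, by 3.74 ± 0.45. These 5 were called without any 1 library. The collagen V gene Col5a1 rose by 1.49 ± 0.21 and was not called without SSC replicate 1 (0.0507) or BCSP replicate 2 (0.0965). Of the basement membrane collagens, Col4a1 rose by 1.95 ± 0.37 and Col4a2 by 1.75 ± 0.32, and neither was called without SSC replicate 1 (0.0803 and 0.0584), BCSP replicate 1 (0.0963 and 0.0735) or BCSP replicate 2 (0.195 and 0.207).

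Of 22 tested osteoblast genes 3 rose and none fell, against 2.85% and 0.603% of all genes (median -0.37). The 3 are not restricted to bone. Col1a1, the main chain of collagen I, was at 11081 and 11320 CPM in SSC, with 22730 and 22283 CPM for pBCSP and 34660 and 40792 CPM for BCSP. The 3 populations were stepwise apart, and Col1a1 rose by 1.75 ± 0.15 (adjusted p = 0.00111). Its partner Col1a2 rose by 1.13 ± 0.18 (adjusted p = 0.013), which was lost without SSC replicate 1 (0.0692) or BCSP replicate 2 (0.0704). Serpinf1, which encodes the antiangiogenic factor PEDF, rose by 1.61 ± 0.24, which was lost without SSC replicate 1 (0.0532), SSC replicate 2 (0.0585) or BCSP replicate 2 (0.102). The osteoblast regulators were not called: Runx2 had a fold change of -0.87 ± 0.44 (adjusted p = 0.422) and Sp7 of -1.02 ± 1.02 (adjusted p = 0.764). Sp7 was at 66.0 and 10.9 CPM in SSC and 29.8 and 8.02 CPM in BCSP, so that replicates of a population differed by more than the populations did. Dmp1, a matrix protein of late osteoblasts and osteocytes, was at 90.5 and 148 CPM in SSC and 26.9 and 36.7 CPM in BCSP (-1.90 ± 0.44, adjusted p = 0.0625). With the replicate block Runx2 (adjusted p = 0.01), Sp7 (0.0394) and Dmp1 (6.7e-05) were called lower.

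Small leucine-rich proteoglycans, which bind collagen fibrils, split in direction. Of 11 tested, 4 rose and 1 fell, against 2.85% and 0.603% of all genes (median -0.24). Aspn, the gene of asporin, was at 195 and 222 CPM in SSC, with 734 and 773 CPM for pBCSP and 2181 and 1646 CPM for BCSP (3.20 ± 0.20, adjusted p = 0.000406). Ogn rose by 1.38 ± 0.16 and Kera, which encodes keratocan, by 3.92 ± 0.46. Dcn, the gene of decorin, rose by 1.37 ± 0.20, which was lost without BCSP replicate 2 (0.0565). Fmod, the gene of fibromodulin, was at 6700.1 and 5643 CPM in SSC and 3599 and 2650.3 CPM in BCSP. It fell by 0.98 ± 0.21 on the log2 scale (adjusted p = 0.0478), and was not called without any of the 4 SSC or BCSP libraries (0.0501 to 0.207).

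Of 8 tested tendon genes 3 rose and 1, Fmod, fell, against 2.85% and 0.603% of all genes (median 0.27). Tnmd, a membrane protein of mature tendon cells, was at 83.6 and 62.4 CPM in SSC, with 239.6 and 192 CPM for pBCSP and 864 and 644 CPM for BCSP (3.37 ± 0.25, adjusted p = 0.00057). Thbs4, a thrombospondin of tendon and muscle attachment, was at 40.0 and 51.7 CPM against 504 and 486 CPM (3.43 ± 0.24, adjusted p = 0.000527). Kera was the third. The tendon transcription factor gene Scx stayed low in both, at 8.41 and 6.66 CPM in SSC and 7.42 and 5.35 CPM in BCSP (-0.24 ± 0.33, adjusted p = 0.849). Of 17 matrix proteases and their inhibitors 2 rose and none fell (median 0.36), and 4 rose with DESeq2. Adamts2, which trims procollagen I, rose by 2.37 ± 0.26, and the aggrecan-cleaving Adamts4 rose by 2.55 ± 0.40, which was lost without BCSP replicate 2 (0.109).

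The insulin-like growth factor (IGF) axis had 6 of 14 tested genes higher and none lower, against 2.85% of all genes that rose (median 0.53). Igf1, the circulating and local growth factor, was at 24.9 and 34.3 CPM in SSC, with 135 and 189.5 CPM for pBCSP and 496 and 580.0 CPM for BCSP (4.18 ± 0.27, adjusted p = 0.000406). Of the 6 tested binding protein genes, whose products hold or release IGF, 5 rose. Igfbp6 rose by 3.33 ± 0.21, Igfbp3 by 3.78 ± 0.42, Igfbp2 by 2.70 ± 0.34 and Igfbp5 by 2.6 ± 0.31, and these 4 and Igf1 were called without any 1 library. Igfbp4 rose by 2.3 ± 0.49 (adjusted p = 0.0463) and was not called without any of the 4 SSC or BCSP libraries (0.0664 to 0.278). Igf2, the fetal growth factor, was at 205 and 115 CPM in SSC and 129 and 69.0 CPM in BCSP (-0.69 ± 0.37, adjusted p = 0.459). Igfbp7, the binding protein gene that was not called, was at 671 and 662 CPM in SSC and 432 and 273 CPM in BCSP (-0.92 ± 0.26, adjusted p = 0.115).

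Of 18 angiogenic and vessel ligands and receptors 4 rose and none fell, against 2.85% and 0.603% of all genes (median 0.97). With DESeq2 7 rose. The 4 were Cxcl12 and 3 of the vascular endothelial growth factor (VEGF) system. Pgf, the placental growth factor, was at 3.56 and 4.0 CPM in SSC and 37.6 and 51.4 CPM in BCSP (3.56 ± 0.32, adjusted p = 0.00125). The co-receptor gene Nrp1 was at 27.6 and 30.0 CPM against 169 and 194 CPM (2.65 ± 0.22, adjusted p = 0.000914). Vegfd, a ligand of lymphatic growth, rose by 3.05 ± 0.58, which was lost without SSC replicate 1 (0.0998), BCSP replicate 1 (0.0914) or BCSP replicate 2 (0.192). Vegfa, the main vessel growth factor, was at 13.2 and 10.1 CPM in SSC and 5.93 and 5.75 CPM in BCSP (-1.0 ± 0.36, adjusted p = 0.218). Adm, the gene of the vasoactive peptide adrenomedullin, was the 1 of 16 tested hypoxia genes that rose (2.26 ± 0.36, adjusted p = 0.0145; median of the list -0.38). Its call was lost without SSC replicate 1 (0.0693), SSC replicate 2 (0.0654) or BCSP replicate 2 (0.133).

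Of 12 tested adipocyte and lipid genes 3 rose and 1 fell, against 2.85% and 0.603% of all genes (median 0.68). With DESeq2 6 rose. Lpl, the lipoprotein lipase gene, was at 11.3 and 12.2 CPM in SSC, with 54.7 and 52.3 CPM for pBCSP and 269 and 236 CPM for BCSP. It had the smallest adjusted p of the comparison together with Mfap5, a microfibril protein gene outside the lists (4.43 ± 0.21 for Lpl and 4.53 ± 0.20 for Mfap5, adjusted p = 0.000192 for both). The lipid droplet coat gene Plin2 rose by 3.37 ± 0.47. Car3, a carbonic anhydrase of fat and muscle, rose by 2.32 ± 0.32, which was lost without BCSP replicate 2 (0.0646). Apoe, a lipid carrier, was at 320.3 and 464 CPM in SSC and 152 and 159 CPM in BCSP (-1.33 ± 0.27, adjusted p = 0.0379), which was lost without SSC replicate 2 (0.14), BCSP replicate 1 (0.193) or BCSP replicate 2 (0.224).

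The Wnt list held calls in both directions, 4 of 35 higher and 4 lower, against 2.85% and 0.603% of all genes (median -0.31). With DESeq2 8 were higher and 7 lower. The secreted agonist gene Rspo2 was at 1.40 and 0.787 CPM in SSC and 10.8 and 7.44 CPM in BCSP (3.05 ± 0.44, adjusted p = 0.00938). The secreted modulators Dkk2 (3.49 ± 0.54, adjusted p = 0.0126), Dkk3 (1.38 ± 0.27, adjusted p = 0.0356) and Sfrp4 (2.51 ± 0.52, adjusted p = 0.0417) also rose. Other secreted inhibitors went the other way. Wif1 was at 1595 and 1393 CPM in SSC, with 2336 and 2184 CPM for pBCSP and 728 and 482 CPM for BCSP (-1.30 ± 0.22, adjusted p = 0.0177), and Sfrp5 at 33.2 and 24.3 CPM in SSC and 5.06 and 9.59 CPM in BCSP (-1.97 ± 0.36, adjusted p = 0.0239). Nkd1, a feedback inhibitor induced by Wnt signals, was at 62.2 and 70.3 CPM against 18.0 and 22.4 CPM (-1.71 ± 0.23, adjusted p = 0.00566), and the receptor gene Fzd9 fell by 1.22 ± 0.23 on the log2 scale (adjusted p = 0.0276). Each of these 8 calls was lost without at least 1 library: Nkd1 without BCSP replicate 1 (0.0688), Rspo2 without BCSP replicate 1 (0.0568), Wif1 without BCSP replicate 2 (0.0638) and Sfrp5 without SSC replicate 1 (0.0721) or BCSP replicate 1 (0.128). Without SSC replicate 1, SSC replicate 2 or BCSP replicate 2 the adjusted p was 0.0594, 0.0663 and 0.0881 for Dkk2, 0.167, 0.108 and 0.287 for Sfrp4, and 0.0702, 0.0688 and 0.148 for Fzd9. Dkk3 was not called without SSC replicate 1 (0.147), BCSP replicate 1 (0.0616) or BCSP replicate 2 (0.287).

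Of 22 transforming growth factor beta genes 3 rose and none fell, against 2.85% and 0.603% of all genes (median 0.19). With DESeq2 5 rose. Acvrl1, the receptor ALK1 that endoglin serves as a co-receptor, was at 5.43 and 4.24 CPM in SSC, with 9.47 and 13.4 CPM for pBCSP and 36.5 and 41.3 CPM for BCSP (3.00 ± 0.30, adjusted p = 0.00211). It was called without any 1 library, while the latent binding protein genes Ltbp1 (0.99 ± 0.21, adjusted p = 0.043) and Ltbp4 (1.02 ± 0.21, adjusted p = 0.0417) were not called without any of the 4 SSC or BCSP libraries (0.0963 to 0.361 and 0.0971 to 0.292). Of 25 bone morphogenetic protein genes none rose and 2 fell, Id1 and Gdf5 (median -0.38), and 5 fell with DESeq2. Id1, a direct target of the pathway, was at 449.6 and 339 CPM in SSC and 189 and 153 CPM in BCSP (-1.20 ± 0.22, adjusted p = 0.0243), which was lost without SSC replicate 1 (0.0758), BCSP replicate 1 (0.0788) or BCSP replicate 2 (0.177). Of 20 fibroblast growth factor genes the ligand Fgf7 (3.69 ± 0.61, adjusted p = 0.0166) and the feedback inhibitor Spry1 (2.27 ± 0.31, adjusted p = 0.00705) rose and the receptor gene Fgfr2 fell (-1.35 ± 0.28, adjusted p = 0.0426). Spry1 was not called without BCSP replicate 2 (0.0592). Without SSC replicate 2 or BCSP replicate 2 the adjusted p was 0.08 and 0.107 for Fgf7 and 0.151 and 0.284 for Fgfr2. Fgf7 was also lost without SSC replicate 1 (0.0694), and Fgfr2 without BCSP replicate 1 (0.166).

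Among the genes that fell, the list of resting zone and growth plate regulators held the most. Of 15 tested, 7 fell and none rose, against 0.603% of all genes that fell, and the median was -1.25. Prg4, which encodes the joint lubricant lubricin, was at 1469.5 and 1759.6 CPM in SSC, with 1965 and 2224 CPM for pBCSP and 634 and 472 CPM for BCSP. Both BCSP libraries were below the other 4, the difference was -1.55 ± 0.20 (adjusted p = 0.0056), and it was called without any 1 library. Gdf5, the joint interzone growth factor, was at 31.8 and 35.7 CPM in SSC and 12.7 and 11.3 CPM in BCSP (-1.49 ± 0.23, adjusted p = 0.0121). The transcription factor genes Barx1 (-1.74 ± 0.33, adjusted p = 0.0282), Foxc1 (-1.45 ± 0.31, adjusted p = 0.0491) and Foxc2 (-1.36 ± 0.25, adjusted p = 0.0248) and the chaperone gene Clu (-1.25 ± 0.21, adjusted p = 0.0187) fell as well. Sfrp5 was the other member. Of the 7 calls 6 were lost without 1 library. Without BCSP replicate 1 the adjusted p was 0.0843 for Gdf5, 0.14 for Barx1, 0.285 for Foxc1, 0.0914 for Foxc2, 0.111 for Clu and 0.128 for Sfrp5. Without BCSP replicate 2 it was 0.14, 0.237, 0.164, 0.218 and 0.155 for the first 5. Without SSC replicate 1 the calls of Foxc1 (0.0917), Foxc2 (0.0826), Clu (0.0627) and Sfrp5 (0.0721) were lost, and without SSC replicate 2 those of Gdf5 (0.0518), Barx1 (0.106) and Foxc1 (0.142).

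Genes of the cartilage matrix and its regulators had negative fold changes, and how many passed the test depended on the setting. Of 24 tested chondrocyte genes 1 fell and none rose, all 24 fold changes were below 0 (median -0.88), and in 20 both BCSP libraries were below both SSC libraries, against 21.3% of all genes. The number that fell was 10 with DESeq2 and 21 without a filter. It was 7 without SSC replicate 2, and 0 without SSC replicate 1 or either BCSP library. Sox9, the master regulator of cartilage, was at 3828 and 2169 CPM in SSC, with 4394 and 2931 CPM for pBCSP and 1827 and 1284 CPM for BCSP (-0.95 ± 0.32, adjusted p = 0.185). Col2a1, the main cartilage collagen, was at 58876 and 37004 CPM in SSC, with 31098 and 28546 CPM for pBCSP and 31908 and 21854 CPM for BCSP (-0.83 ± 0.25, adjusted p = 0.146). Acan, the gene of aggrecan, was at 581 and 440.1 CPM in SSC and 303 and 244 CPM in BCSP (-0.90 ± 0.22, adjusted p = 0.0743). The replicates of a population differed in these genes, with replicate 1 above replicate 2 in SSC and in BCSP. With the replicate block Sox9 (adjusted p = 0.00111), Col2a1 (0.00386) and Acan (0.00103) were called lower. Chst11, a chondroitin sulfotransferase gene, was the 1 that fell (-1.21 ± 0.24, adjusted p = 0.0355), and it was not called without any of the 4 SSC or BCSP libraries (0.0887 to 0.285). None of the 10 tested hypertrophic chondrocyte genes passed (median -0.60). Col10a1, the collagen of hypertrophic cartilage, was at 202 and 14.9 CPM in SSC, with 0.18 and 0.11 CPM for pBCSP and 111 and 54.8 CPM for BCSP (-0.39 ± 0.89, adjusted p = 0.927), and without SSC replicate 1 it was 2.42 and called higher (0.0405). Ihh, the hedgehog ligand of prehypertrophic cartilage, was likewise at 194 and 6.54 CPM in the 2 SSC libraries. Of 16 integrin list genes Itgbl1, an integrin-beta-like secreted protein of cartilage, fell (-1.08 ± 0.23, adjusted p = 0.0428) and none rose (median -0.79). It was not called without SSC replicate 2 (0.155), BCSP replicate 1 (0.211) or BCSP replicate 2 (0.243), nor with only the 4 libraries in the fit.

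The 12 largest decreases were chosen by size and form no list. Gjc3, a connexin of myelinating glia, was at 52.2 and 91.3 CPM in SSC, with 8.52 and 10.7 CPM for pBCSP and 8.18 and 17.6 CPM for BCSP (-2.48 ± 0.42, adjusted p = 0.0187). Cadm4, an adhesion molecule of Schwann cells and oligodendrocytes, was at 21.5 and 25.7 CPM in SSC and 2.2 and 5.64 CPM in BCSP (-2.59 ± 0.46, adjusted p = 0.023). Aspa, the aspartoacylase of oligodendrocytes, was at 22.4 and 22.3 CPM against 2.56 and 6.74 CPM (-2.27 ± 0.48, adjusted p = 0.0454). SSC libraries were the highest for each of these. Gatm, an enzyme of creatine synthesis, was at 144 and 169 CPM in SSC, with 2.12 and 3.56 CPM for pBCSP and 17.8 and 47.0 CPM for BCSP (-2.27 ± 0.44, adjusted p = 0.0316), so that pBCSP was below both. Rasgef1c, a guanine nucleotide exchange factor gene, had the largest fall of the 12, from 13.3 and 31.7 CPM to 0.511 and 1.57 CPM (-4.44 ± 0.64, adjusted p = 0.00908). The others were Col28a1 (-2.78 ± 0.43), Tmprss5 (-2.70 ± 0.44), Luzp2 (-2.67 ± 0.47), Col20a1 (-2.63 ± 0.56), Sbspon (-2.46 ± 0.46), Paqr5 (-2.95 ± 0.54) and Fam89a (-2.41 ± 0.43), with adjusted p from 0.0126 to 0.0463. Paqr5 and Fam89a differed from the rest in pBCSP, where they were at 4.37 and 9.04 CPM and at 33.8 and 18.4 CPM. None of these 12 was called without BCSP replicate 1, where the adjusted p ran from 0.0504 for Rasgef1c to 0.232 for Col20a1, and the 11 other than Rasgef1c were lost without SSC replicate 1 or 2 or BCSP replicate 2 as well: SSC replicate 2 for Gjc3 (0.0707), Cadm4 (0.0772), Aspa (0.113), Gatm (0.0888), Col28a1 (0.0573), Tmprss5 (0.0518), Luzp2 (0.0905), Col20a1 (0.215), Sbspon (0.0986) and Paqr5 (0.087), SSC replicate 1 for Aspa (0.0986), Gatm (0.0514), Tmprss5 (0.0547) and Fam89a (0.0608), and BCSP replicate 2 for Tmprss5 (0.128), Luzp2 (0.112), Col20a1 (0.287), Sbspon (0.0622), Paqr5 (0.102) and Fam89a (0.192).

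The Schwann cell and nerve list, which covers markers of another cell type a limb sort could hold, was read in the same libraries. Its summed level was 2668 and 3449 CPM in SSC, with 971.5 and 1168 CPM for pBCSP and 1140 and 2029 CPM for BCSP, and no member was at 0 in all 4 libraries. Of 11 tested members 1 fell, 1 rose and 9 were not called, against 0.603% of all genes that fell and 2.85% that rose. The median was -1.87. The count of lower members was 3 with DESeq2 and 6 without a filter. Cdh19, a cadherin of Schwann cell precursors, was at 26.9 and 51.9 CPM in SSC, with 1.26 and 1.31 CPM for pBCSP and 9.21 and 10.5 CPM for BCSP (-2.0 ± 0.35, adjusted p = 0.0211). Gap43, a growth protein of axons and Schwann cells, rose by 2.16 ± 0.33 (adjusted p = 0.0122). The glial regulator gene Sox10 was at 29.7 and 52.1 CPM in SSC, with 2.39 and 1.42 CPM for pBCSP and 2.25 and 10.1 CPM for BCSP (-2.73 ± 0.64, adjusted p = 0.065). It was called lower with DESeq2 (adjusted p = 0.000203) and with the replicate block (0.000601). Both SSC libraries thus held more Cdh19 and Sox10 RNA than any other WT library. Cdh19 was not called without SSC replicate 2 (0.0833), BCSP replicate 1 (0.152) or BCSP replicate 2 (0.152), and Gap43 without SSC replicate 1 (0.0525), SSC replicate 2 (0.0658) or BCSP replicate 2 (0.126). The part of Schwann cell RNA in the decreases was not tested. In bulk samples fewer cells of a type and less RNA per cell cannot be told apart.

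Markers of muscle moved the other way. Of 16 listed skeletal muscle genes 12 were tested. Of these 6 rose and none fell, against 2.85% and 0.603% of all genes. All 12 fold changes were above 0, and the median was 3.45 against -0.022 for all genes. Low genes such as Myf5 passed the filter through populations where they were higher than in SSC, so these counts are a description only. The list summed to 86.6 and 44.4 CPM in SSC, with 114 and 109 CPM for pBCSP and 500.1 and 755 CPM for BCSP. Acta1, the skeletal muscle actin gene, was at 15.0 and 14.7 CPM in SSC, with 44.4 and 51.4 CPM for pBCSP and 282 and 429.7 CPM for BCSP (4.58 ± 0.27, adjusted p = 0.000345). The contractile and energy genes Myl1 (4.99 ± 0.42), Ckm (4.49 ± 0.55) and Mylpf (2.96 ± 0.33) were also called without any 1 library. Des, the desmin gene, rose by 2.79 ± 0.46, which was lost without BCSP replicate 2 (0.121). Myf5, a myogenic determination factor, was at 0.0584 and 0.242 CPM in SSC and 2.71 and 2.03 CPM in BCSP (3.93 ± 0.81, adjusted p = 0.0417), which was lost without any of the 4 SSC or BCSP libraries (0.0737 to 0.193). Myod1 reached 0.581 CPM at most, and Pax7, which marks satellite cells, was at 0 in both BCSP libraries, and Tnnc2, a fast muscle troponin gene, was at 0 in all 4. The part of muscle RNA in the increases of Myot, Car3 and Thbs4 was not tested.

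Of 15 tested endothelial genes 3 rose and none fell, against 2.85% and 0.603% of all genes (median 1.95), with 7 higher by DESeq2. The list summed to 92.8 and 102 CPM in SSC, with 163 and 166 CPM for pBCSP and 191 and 185 CPM for BCSP. Besides Tek, Pecam1 rose from 3.27 and 3.03 CPM to 9.21 and 12.7 CPM (1.80 ± 0.34, adjusted p = 0.0287) and Tie1 from 0.526 and 0.242 CPM to 4.6 and 2.21 CPM (3.13 ± 0.58, adjusted p = 0.0266). Tek and Tie1 passed the filter on low counts through populations where they were higher than in SSC, so the count of this list is a description only. Cdh5, the endothelial cadherin, was at 0.767 and 1.1 CPM in BCSP, and Kdr, the main VEGF receptor, at 1.43 and 1.28 CPM, and neither was called. Pecam1 was higher in pBCSP (16.9 and 25.6 CPM) than in BCSP, whereas Tek was lower there (4.46 and 5.70 CPM). The calls of Pecam1 (0.0672 to 0.237) and Tie1 (0.0525 to 0.127) were lost without any of the SSC libraries or BCSP replicate 1, and that of Pecam1 also without BCSP replicate 2. The part of endothelial RNA in the increases of Eng, Nrp1 and Acvrl1, which endothelial cells express too, was not tested. Leukocyte genes summed to 45.5 and 46.7 CPM in SSC and 47.1 and 44.7 CPM in BCSP, with 0 of 18 called. Of these 18 fold changes 15 were above 0 and 3 below (median 0.90), so the like sums do not show that single genes were equal. Erythroid genes summed to 126 and 65.7 CPM in SSC and 44.4 and 94.2 CPM in BCSP, with 0 of 12 called (median -0.002).

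Several lists held no call in either direction, 18 of 43 in all, or 12 with DESeq2 and 10 without a filter. S phase genes had 0 of 22 called, with 18 above 0 and a median of 0.45 (3 rose with DESeq2), and genes of G2 and M phase 0 of 23, with 18 above 0 and a median of 0.26. Glycolysis genes had 0 of 21 called (median -0.25), Hox genes 0 of 25 (median -0.12), Notch pathway genes 0 of 15 (median 0.05) and immediate early genes 0 of 24 (median -0.16). These counts stand against 3.45% of all tested genes and do not show that the levels were equal. Of 16 limb and mesenchyme transcription factors Emx2 rose, from no read in either SSC library to 1.23 and 2.38 CPM in BCSP (adjusted p = 0.0263), which was lost without any of the 4 SSC or BCSP libraries (0.0857 to 0.245).

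The intermediate population lay between SSC and BCSP for most of the increases. The mean of pBCSP was between the other means in 423 of the 463 genes that rose, at or below SSC in 35 and at or above BCSP in 5. For the 98 genes that fell it was between them in 39, at or below BCSP in 34, as for Gatm and Aspa, and at or above SSC in 25, as for Prg4 and Wif1. These counts describe the means of the libraries and were not tested.

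The histone mark H3K4me3, which sits at the starts of active genes, had been profiled in the same WT populations with 1 peak list each, of 33510 peaks in SSC and 32132 in BCSP. With 1 list per population no test was possible, and a missing peak says only that the authors' caller listed none. A peak within 1 kb of either end of the gene, a rule chosen after the data were seen, was listed in BCSP alone for 38 of the 461 genes that rose and have a RefSeq position (8.24%) and in SSC alone for 3 (0.651%). Over all 15223 tested genes with a position the shares were 1.02% and 0.801%, and over the 98 genes that fell 1.02% and 2.04%, which is 1 and 2 genes. Dpt was among the 38, with a fold enrichment of 7.80 given by the authors, as were Qprt (7.08), Col6a6 (7.02), Mfap5 (7.68), Tek (5.72), Tnmd (4.93) and Ly6a (4.13), and 5 of the p200 genes, Ifi207 (4.67), Ifi203 (3.95), Ifi211 (3.69), Mndal (3.64) and Ifi204 (3.35). Igfbp3 was also counted among the 38, but its RefSeq promoter entry had a peak within 1 kb in both lists (5.48 in SSC and 10.8 in BCSP). The 3 genes that rose with a peak in SSC alone were Stambpl1 (18.8), Spink2 (4.80) and Il1rl1 (3.55). Il1rl1 was among the 12 largest increases, and its RefSeq promoter entry had no peak in either list. Other increases had a peak in both lists, such as Eng (4.93 in SSC and 12.2 in BCSP), Igf1 (7.97 and 15.5) and Aspn (3.95 and 15.1), and Acta1 and Pi16 had none in either. Gjc3 had a peak in SSC alone (3.32), while Gatm and Prg4 had one in both. The promoter of Dpt, shown because its peak was listed in BCSP alone, covers chr1:164796413-164796712 on the plus strand of GRCm38.p6 (RefSeq), with a match to TATAAA in capitals.
Dpt: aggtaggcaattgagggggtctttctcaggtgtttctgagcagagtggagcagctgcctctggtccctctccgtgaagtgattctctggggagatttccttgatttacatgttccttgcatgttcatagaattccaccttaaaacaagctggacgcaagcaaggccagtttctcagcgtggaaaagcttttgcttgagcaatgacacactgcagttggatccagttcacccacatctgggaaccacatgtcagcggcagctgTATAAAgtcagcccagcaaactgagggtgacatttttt
The match, searched on both strands, begins at base 263 of this window, which is after the annotated start. A match is in 13.6% of all promoters of this length, in 7.76% of those of tested genes and in 13.9% of those of genes that rose. The acetylation mark H3K27ac was not compared, since its lists were of unequal size (1828 and 137 peaks in SSC, 6236 and 785 in BCSP).

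**Figure D5:**
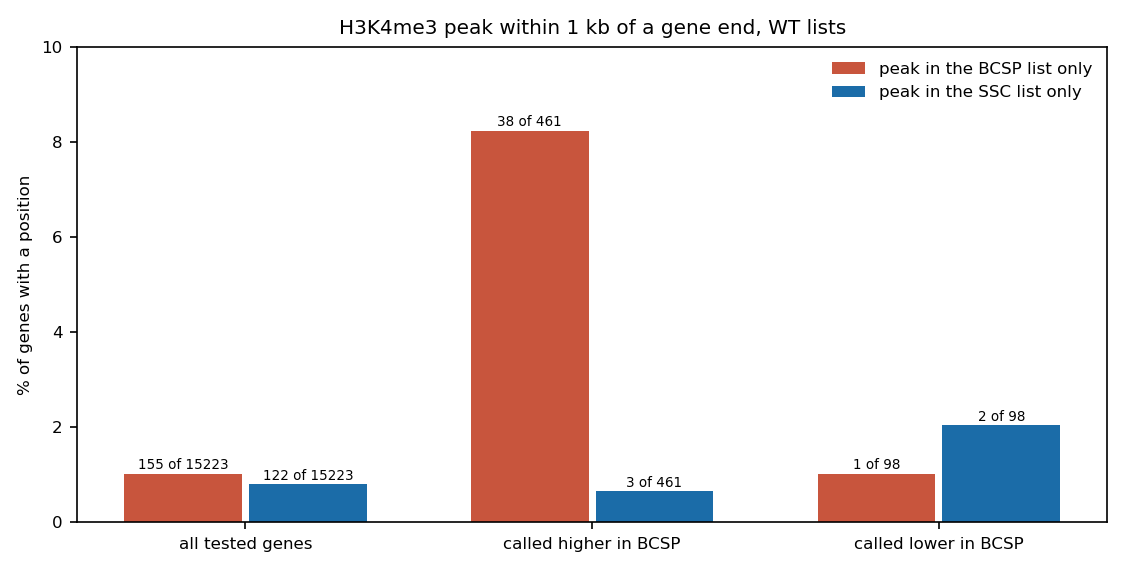
Share of genes (vertical axis, percent, from 0) with an H3K4me3 peak listed within 1 kb of a gene end in BCSP alone or in SSC alone, for all tested genes and for those called higher or lower in BCSP. The tallest bar is BCSP alone among genes that rose, 38 of 461, and the bars of the genes that fell stand for 1 and 2 genes.

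The same difference between populations was read in the KO libraries and compared with WT in a model of all 12 libraries. In edgeR this model called 0 genes for BCSP against SSC within WT and 0 within KO. A count of 0 in the test below therefore cannot show that the genotypes were alike. The test of the difference of differences called 0 of 17494 genes with edgeR (464 at an unadjusted p under 0.05) and 0 with DESeq2 (703), so that for no gene was the difference between BCSP and SSC shown to depend on genotype. The count was 2971 without SSC KO replicate 1, and 0 without any other SSC or BCSP library. Paxip1, the targeted gene, was at 13.7 and 11.8 CPM in WT SSC, 13.2 and 7.25 CPM in WT BCSP, 0.347 and 0 CPM in KO SSC, and 3.48 and 0.791 CPM in KO BCSP, so that each KO library was below each WT library. The 2 SSC KO libraries differed by a median of 1.40 log2 units per gene, and replicate 2 had a read in 13987 genes against 21225 in replicate 1. Of the 463 genes that rose in WT, 404 had a fold change above 0 in KO (87.3%, against 57.8% of all genes in this fit), and in 111 both KO BCSP libraries were above both KO SSC libraries (24.0%, against 17.3% of all genes). The median was 1.58 in KO and 2.42 in WT, and 0.149 over all genes in KO. Of the 98 that fell, 79 were below 0 in KO (80.6%, against 41.9% of all genes), with medians of -0.61 and -1.39. Prg4 was at 752 and 707 CPM in KO SSC and 237 and 252 CPM in KO BCSP (-1.58 ± 0.25, against -1.58 ± 0.25 for WT in the same model). Eng was at 29.5 and 27.8 CPM in KO SSC against 85.2 and 72.8 CPM. Dpt was at 19.1 and 0.0554 CPM in KO SSC and 270.0 and 24.7 CPM in KO BCSP, and Igf1 at 16.4 and 16.5 CPM against 343 and 20.5 CPM. Replicate 2 of KO BCSP was thus far below replicate 1 for both.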

How the data were processed

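RNA was measured in 2 libraries each of SSC, pBCSP and BCSP per genotype. The deposited RNA values are whole-number read counts per gene, which the authors did not normalise, in 1 table for the series. Per the submitters' processing notes the build was GRCm38 and the tools included featureCounts 2.0.1 for counting, Bowtie2 2.3.5.1, MACS2 2.2.6 for peaks, SAMtools 1.9 and Trim Galore 0.6.6. The settings, the annotation and the use of strand are not given in these sources, so overlapping and antisense genes cannot be told apart. The deposited peak lists give a score, a fold enrichment, a -log10 p-value and a -log10 q-value per peak, as made by the authors.

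The 6 WT libraries were fitted with edgeR 4.0.16 (R 4.3.3; TMM, filterByExpr, quasi-likelihood test of BCSP minus SSC, Benjamini-Hochberg over 16264 genes). Symbols were found for 55141 of 55487 IDs and for 709 of 711 list genes. Named were the 12 largest increases and decreases (mean of at least 5 CPM, called, libraries not overlapping), key genes of the lists, up to 6 called members per list by p and the 3 highest members; the p200 family, Mfap5 and further genes with peaks were named after their values were seen. Genes, lists and tests were chosen with earlier results of these data known. Alternatives were DESeq2 1.42.0, other scaling and filters, other libraries, and leaving out each library. Scripts were tested on simulated counts. The RefSeq promoter table (GRCm38.p6) holds 178 of the 248 named genes, under 80%, so a peak count at promoters is void and gene ends were used. Replicates were not copies of 1 library, since the chi-square of their counts was 32.2 to 53.9 per degree of freedom in WT.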

Additional observations from a re-analysis of the deposited data

How the results depend on the processing

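The count of 561 genes (463 higher, 98 lower) was 575 with relative log expression factors, 579 with a filter of at least 1 CPM in 2 libraries and 680 with only the 4 SSC and BCSP libraries. It was 1157 with DESeq2 (816 higher, 341 lower) and 1479 without a filter (936 higher, 543 lower), and all 561 were among them in both cases. The calls of DESeq2 were also read for 17 genes discussed above that edgeR did not call. These 17 were picked for the text and are not all of the named genes left uncalled. DESeq2 called 6 of them, Acan (adjusted p = 0.00904), Cd200 (0.00526), Dmp1 (0.000597), Sox10 (0.000203), Kdr (0.0367) and Igfbp7 (0.0249). With all 12 libraries the count of all genes was 0, and 80 with DESeq2 on them, of which 76 were among the 561. The latter setting was chosen after the data were seen. Leaving out 1 WT library gave 173 to 761. The cause of these shifts was not tested. The labels give the populations the same replicate numbers without saying that a number marks shared animals. Whether the libraries are paired was not tested. The main fit has no term for the replicate number, and the replicate block adds such a term. With the replicate block the count was 2110 (1244 higher, 866 lower), and 23 of 24 chondrocyte genes fell. The block also called 12 of the same 17 genes, among them Acan (adjusted p = 0.00103), Sox9 (0.00111), Col2a1 (0.00386), Cd200 (0.000547), Dmp1 (6.7e-05) and Sox10 (0.000601). The differences between replicates correlated across 16264 genes by 0.285 between SSC and BCSP, 0.343 between SSC and pBCSP and 0.327 between pBCSP and BCSP. Xist, transcribed from the inactive X chromosome, was at 9.87, 13.2 and 15.0 CPM in replicate 1 of SSC, pBCSP and BCSP and at 0 in replicate 2 of each.

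Of single genes, those that turned in direction were not called in the main fit: Col10a1, Ihh, Sp7 and Itgav turned without SSC replicate 1, and Col10a1 was at 0.42 with the replicate block. The test of KO minus WT gave 34 genes without a filter and 0 to 2971 without 1 library, and 0 with the replicate block; no other alternative gave a call. Of genes that rose, 1 had an H3K4me3 peak in SSC alone within 500 bases of a gene end, against 3 within 1 kb. Without 1 library these 4 genes ranged from -0.0070 to 0.15 for Itgav, -2.26 to 0.74 for Sp7, -1.29 to 2.42 for Col10a1 and -2.49 to 2.63 for Ihh. At 2 libraries a group and 15495915 to 19337996 counts, low genes such as Emx2 rest on a few reads. Emx2 passed the filter on low counts through populations where it was higher than in SSC.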
